A study of Mus musculus with 2 samples.

Results

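The NR4A receptors are a family of 3 orphan nuclear receptors, Nr4a1 (Nur77), Nr4a2 (Nurr1) and Nr4a3 (Nor1). They were chosen by gene symbol in the deposited count files, with the values of this same comparison known when they were chosen, so their own ratios are given as a description with no test. All 3 were among the 23284 genes listed, and all 3 passed a minimum mean level of 1 CPM, the usual scaling of counts to library size, which left 12607 genes as measured. The cells were primary hepatocytes, liver cells isolated from C57BL/6 mice and cultured, whose age is not given in the sources used here. One library came from cells given control lentivirus and the other from cells given lentivirus with an shRNA against JMJD3, the histone H3 lysine 27 demethylase encoded by Kdm6b. The study, by its title, is about JMJD3 in fasting and its effect on fat burning in mitochondria. Each library was a pool of 5 mice, infected 24 h after plating for 48 h, and both cultures then had 5 mM glucose and 10 µM forskolin for 6 h as an imitation of fasting. No source used here gives the shRNA sequence or says whether both pools came from the same animals. No culture without forskolin and none without virus was analysed here, so how far forskolin had induced the NR4A genes was not measured. Each group has 1 library, so the spread between replicates is unknown, no p-value was computed, and every interval is a 95% interval of counting error only.

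NR4A receptors are transcription factors whose activity depends mainly on how much of them is made, since the pocket that binds a ligand in other nuclear receptors is filled by side chains of the protein itself. Their genes are immediate early genes, switched on within minutes to hours by cyclic AMP, calcium, growth factors or stress, and their transcripts are short-lived. In liver, glucagon and fasting raise cyclic AMP, protein kinase A phosphorylates the transcription factor CREB, and CREB acts at cyclic AMP response elements (CREs) in NR4A promoters. NR4A proteins bind a DNA element called the NBRE as monomers, Nr4a1 and Nr4a2 can also pair with the retinoid X receptors, and in hepatocytes NR4A proteins raise genes of glucose production.

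The promoters are shown because all 3 share one feature that the choice of the genes did not use, several CRE cores, here the letters TGACG on either strand. The windows are the 250 bases before the annotated start of transcription, from RefSeq on GRCm38.p6, and each is printed 5′ to 3′ along the gene with the CRE cores in capitals, where CGTCA is TGACG on the opposite strand. The Nr4a1 window is chr15:101266596-101266845 on the plus strand and the Nr4a2 window is chr2:57124004-57124253 on the minus strand. For Nr4a3 152 of the 250 bases lie in exons annotated by GENCODE, so only stretches of 30 bases around sites are printed, chr4:48045084-48045113 with a pair of sites and chr4:48045146-48045175 with 1, both on the plus strand.
Nr4a1: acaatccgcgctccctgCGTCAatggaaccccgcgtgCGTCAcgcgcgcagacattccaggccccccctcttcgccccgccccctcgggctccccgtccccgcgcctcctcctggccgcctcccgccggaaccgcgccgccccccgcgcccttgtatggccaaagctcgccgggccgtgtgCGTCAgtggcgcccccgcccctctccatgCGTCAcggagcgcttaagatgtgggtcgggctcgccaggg
Nr4a2: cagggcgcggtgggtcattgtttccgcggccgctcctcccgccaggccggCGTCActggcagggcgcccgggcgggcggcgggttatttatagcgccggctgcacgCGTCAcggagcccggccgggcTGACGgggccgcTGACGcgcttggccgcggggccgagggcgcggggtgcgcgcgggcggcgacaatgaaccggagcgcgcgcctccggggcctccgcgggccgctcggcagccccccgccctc
Nr4a3 first stretch: tcccatgtCGTCAcatTGACGtctcgcatt
Nr4a3 second stretch: ctgtggcataaaTGACGtgccgagagagcg

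Each of the windows held 4 CRE cores. Counted from the start of transcription to the first base of each match along the gene, they began at -233, -213, -69 and -40 for Nr4a1, at -200, -144, -123 and -111 for Nr4a2, and at -231, -213, -205 and -147 for Nr4a3. The Nr4a3 site at -231 is outside the printed stretches. Since 152 bases of the Nr4a3 window lie in GENCODE exons, its count of 4 holds for the RefSeq start only. Which of its sites lie in those exons was not examined. Of all 32851 promoter windows of the same length, 17.8% held at least 1 CRE core and 0.137% held at least 4. TGACG contains a CG pair, and the NR4A windows were rich in G and C, at 74.4% for Nr4a1, 80.0% for Nr4a2 and 63.6% for Nr4a3 against a median of 52.4% over all windows. Among the 6582 windows at least as GC-rich as that of Nr4a3, 0.380% held 4 or more. None of the 3 windows held the full CRE, TGACGTCA (a palindrome that contains a CRE core on each strand, in 1.55% of all windows), the NBRE, AAAGGTCA (1.34%), or a CArG box, the element of serum response factor (1.47%). A match of letters is not evidence of a bound factor.

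The libraries held 11099562 counts for control and 18334366 for JMJD3 shRNA, a 1.65-fold difference in depth, and levels were scaled to library total with TMM factors. Kdm6b, the target of the shRNA, had 1019 counts in control and 598 in knockdown, or 90.7 and 33.0 CPM, a ratio of 0.364 (0.329 to 0.403). The hepatocyte label was checked against 10 markers: Alb had 17070 and 14369 counts and Trf 48121 and 77030, while Cps1 had 2505 and 70, and Apoa1, abundant in liver, had 37 and 53. Of these 10 markers 6 were lower and 1 higher by the rule of size defined below, beside 12.8% and 15.3% of all measured genes. The summed level of the 10 markers was 12420 CPM in control and 8635 in knockdown. Cholangiocyte markers also had high sums, 8101 and 8434 CPM, nearly all from Spp1.

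All 3 NR4A transcripts were lower in the knockdown library, each to a different degree. Nr4a1 had 255 counts in the control library and 184 in the deeper knockdown library, which are levels of 22.7 CPM (20.0 to 25.7) and 10.2 CPM (8.75 to 11.7). Its knockdown level was thus 44.8% of control, a log2 ratio of -1.16 (-1.44 to -0.88). Nr4a2 had 310 counts in control and 55 in knockdown, or 27.6 CPM (24.6 to 30.8) and 3.04 CPM (2.29 to 3.95). It was 9.08-fold lower (6.80 to 12.3), a log2 ratio of -3.18 (-3.62 to -2.77). Nr4a3 had 130 counts in control and 3 in knockdown, or 11.6 CPM (9.66 to 13.7) and 0.166 CPM (0.0342 to 0.484). At the control level the knockdown library would have held 209 counts of Nr4a3, and the 3 found put it at 1.43% of control, a log2 ratio of -6.13 (-8.42 to -4.55). For each gene the counting intervals of the libraries did not overlap.

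**Figure D1:**
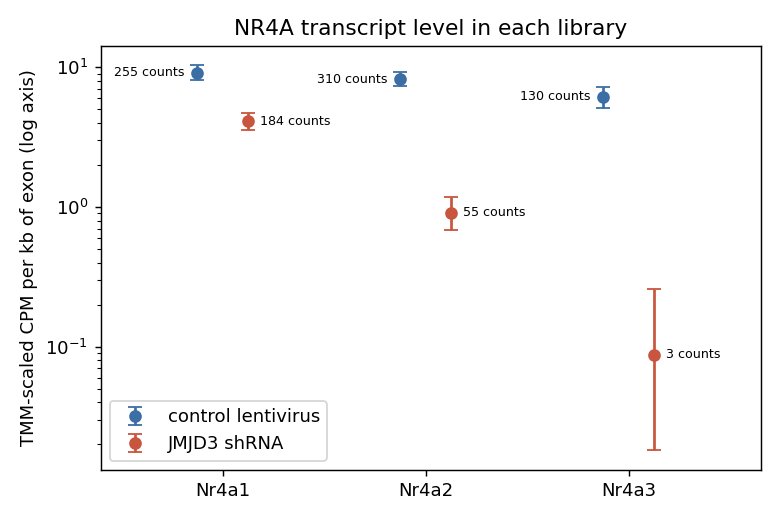
Level of each NR4A transcript in TMM-scaled CPM per kb of exon (log axis) in the control library (blue) and the JMJD3 shRNA library (red), 1 library each, with exact Poisson 95% intervals and the raw count beside each point. The control levels lie between 6.14 and 9.16, while the knockdown levels spread from 4.10 for Nr4a1 to 0.0879 for Nr4a3.

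The rule of size asks for a ratio of 1.5-fold or more in either direction, with an interval that does not include 1. All 3 NR4A genes passed as lower, where 12.8% of the 12607 measured genes did so and 15.3% passed as higher. Since the genes were chosen with these values known, nothing is read from that difference. By the size of the ratio Nr4a3 ranked 17th lowest of all measured genes, Nr4a2 106th and Nr4a1 626th. Among the 2883 measured genes with a control level within 2-fold of that of Nr4a3, 3 had a lower ratio. Among the 4451 genes so matched to Nr4a2 there were 25, and among the 4129 matched to Nr4a1 there were 158. These ranks and counts rest on the same known values, so they are a description and nothing is read from them either. The authors' deposited table gives log2 fold changes of -1.16 for Nr4a1, -3.18 for Nr4a2 and -6.05 for Nr4a3. Its adjusted p-values are 3.9e-05, 1.81e-26 and 3.61e-30 in that order, and 11.8% of the 12838 genes of that table are lower with an adjusted p-value under 0.05. No source used here states the test behind these p-values, and with 1 library per group they cannot hold a measured spread between samples.

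**Figure D2:**
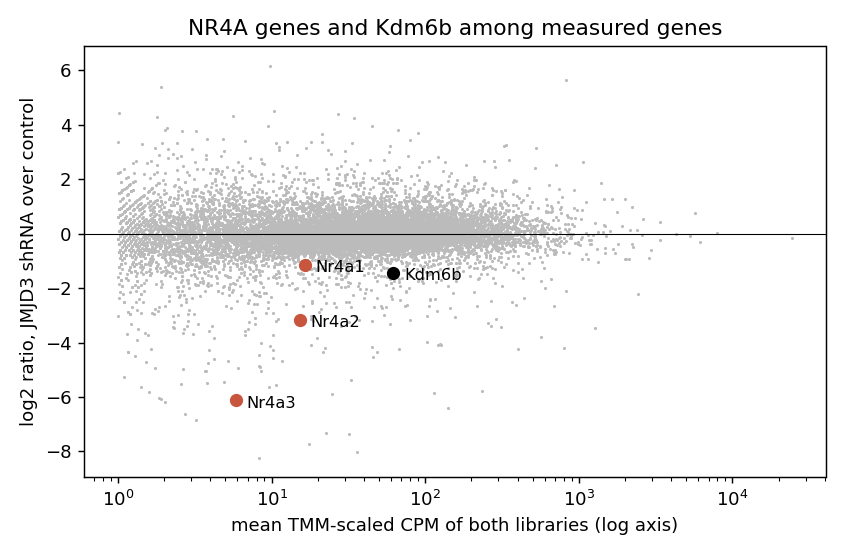
Log2 ratio of JMJD3 shRNA over control against mean level in TMM-scaled CPM (log axis) for the measured genes with a count in both libraries (grey), with the 3 NR4A genes (red) and Kdm6b (black) marked. Nr4a1 at -1.16 lies near Kdm6b at -1.46, and Nr4a3 at -6.13 lies at the lower edge of the cloud.

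The members differed from one another beyond counting error in how far they were lower. The log2 ratio of Nr4a1 was higher than that of Nr4a2 by 2.02 (1.51 to 2.55) and higher than that of Nr4a3 by 4.97 (3.35 to 7.28). That of Nr4a2 was higher than that of Nr4a3 by 2.94 (1.28 to 5.29). These differences do not depend on how the libraries are scaled, since the scaling cancels between genes of the same libraries.

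Levels can be compared between genes only per length of exon. Nr4a3 was counted over its coding part alone and the other members over nearly their whole transcripts, as given below. What this does to the levels and shares of the members was not tested. In control the order was Nr4a1 at 9.16 CPM per kb, Nr4a2 at 8.24 and Nr4a3 at 6.14. Nr4a1 and Nr4a2 did not differ beyond counting error there, at 1.11-fold (0.938 to 1.32), while Nr4a2 was 1.34-fold (1.09 to 1.66) above Nr4a3. Reads of a pair were counted singly, which makes these intervals too narrow, and level differences were not recomputed with halved counts. In knockdown the order was the same but much steeper, at 4.10, 0.908 and 0.0879 CPM per kb. Nr4a1 was then 4.52-fold (3.33 to 6.23) above Nr4a2, and Nr4a2 was 10.3-fold (3.35 to 51.6) above Nr4a3. Of the summed NR4A level per length, Nr4a1 made up 38.9%, Nr4a2 35.0% and Nr4a3 26.1% in control. In knockdown Nr4a1 made up 80.5%, Nr4a2 17.8% and Nr4a3 1.72%. No member made up most of the family in control, whereas Nr4a1 did in knockdown.

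The deposited gene models set what could be counted for each member. In mm9 Nr4a1 lies on the plus strand of chromosome 15 from 101097277 to 101105225 with 7 exons, and Nr4a2 on chromosome 2, minus strand, from 56959637 to 56976414 with 9. Nr4a3 lies on the plus strand of chromosome 4 from 48064120 to 48096224 with 6 exons. The counted exon length of Nr4a3, 1884 bp, equals its coding length with the stop codon in GENCODE M21, where its longest coding transcript has 5720 bp. Reads from the untranslated parts of Nr4a3 were therefore not counted in either library. The counted lengths of Nr4a1 and Nr4a2, 2476 and 3347 bp, are 97.0% and 93.8% of their longest GENCODE transcripts. No exon of a member shares bases with another gene in the files.

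The nearest measured genes on either side of the members are given for position. Around Nr4a1 they were Grasp at log2 0.19 (-0.54 to 0.96) and Acvr1b at 0.24 on the lower side, and 9430023L20Rik at -0.02 and the keratin Krt80 at 1.90 (0.52 to 3.62) on the higher side. Around Nr4a2, which sits in a stretch with few measured genes, they were Rprm at 0.90 (-0.31 to 2.26), Arl6ip6 at -0.26, the mitochondrial glycerol-3-phosphate dehydrogenase Gpd2 at -1.26 (-1.42 to -1.11) and the activin receptor Acvr1 at 0.72. Gpd2 lies 114 kb from Nr4a2, while Acvr1, Rprm and Arl6ip6 lie 1322, 3022 and 3881 kb from it. Around Nr4a3 they were Sec61b at -0.35, Alg2 at 0.15, Stx17 at -0.01 and Erp44 at -0.25. Sec61b and Alg2 lie 568 and 577 kb from Nr4a3, and Stx17 and Erp44 lie 42 and 110 kb from it. Of these 12 neighbours 1 passed as lower, Gpd2, and 2 as higher, Krt80 and Acvr1, which is near the 12.8% and 15.3% of all measured genes.

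**Figure D3:**
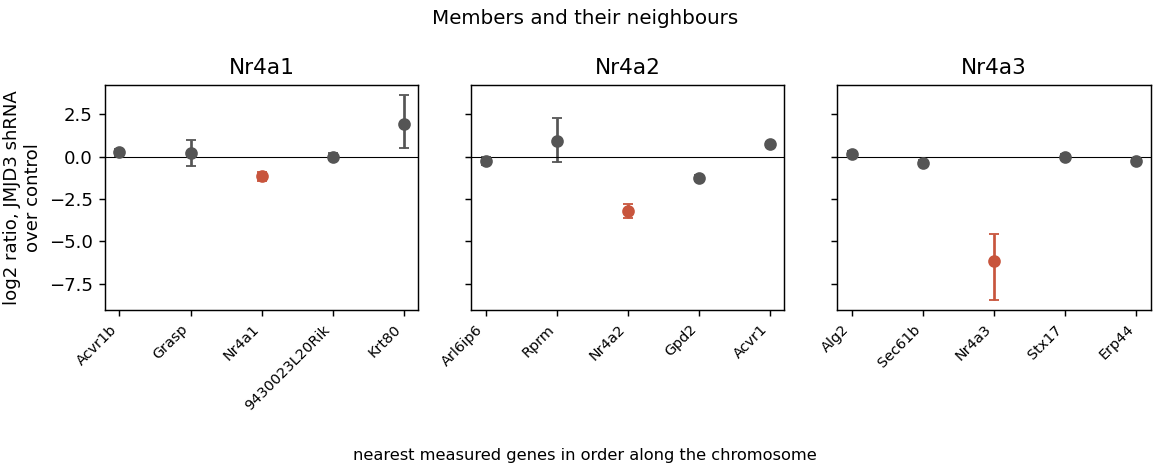
Log2 ratio of JMJD3 shRNA over control with 95% counting intervals for each NR4A gene (red) and the nearest measured genes on each side (grey), in order along the chromosome and not to distance. The NR4A gene is the lowest of the 5 genes shown in each panel, and Gpd2 at -1.26 is the lowest neighbour.

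Within the nuclear receptor superfamily, transcription factors many of which respond to steroids, thyroid hormone, retinoids, bile acids or lipids, the NR4A genes were of middling abundance in control. Per length they ranked 20th, 22nd and 26th of 49 receptor genes for Nr4a1, Nr4a2 and Nr4a3, and 26th, 32nd and 38th in knockdown. Their summed level was 23.5 CPM per kb in control and 5.10 in knockdown, which is 4.39% and 1.09% of all nuclear receptor transcripts per length. Without division by exon length these shares were 3.38% and 0.804%. The other 46 receptors summed to 513 and 462 CPM per kb. Lower ratios passed in 9 of their 33 measured genes and higher ones in 6, beside 12.8% and 15.3% of all measured genes. With a 2-fold rule these counts were 3 and 1, beside 781 lower and 926 higher of all 12607 measured genes. The median log2 ratio was -0.19 against 0.00 over all measured genes.

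Among the 36 measured receptors Nr4a3 had the lowest ratio, Nr4a2 the 3rd lowest and Nr4a1 the 5th. Between them stood Rorb at -3.38 (-4.58 to -2.35), on 58 and 9 counts, and, named after its values were seen, the bile acid feedback repressor Nr0b2 at -1.26 (-2.02 to -0.51). The intervals of Rorb and Nr4a2 overlapped, as did those of Nr0b2 and Nr4a1. The most abundant receptors per length, the hepatocyte regulator Hnf4a and the oxysterol receptor Nr1h2, were at -0.57 and -0.32. The highest was the retinoic acid receptor Rara at 1.37, on 291 and 1213 counts. The retinoid X receptors that pair with Nr4a1 and Nr4a2 were not past the rule of size, Rxra at -0.22 (-0.31 to -0.12) and Rxrb at -0.02 (-0.16 to 0.13), and Rxrg had 7 and 3 counts and was not measured.

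**Figure D4:**
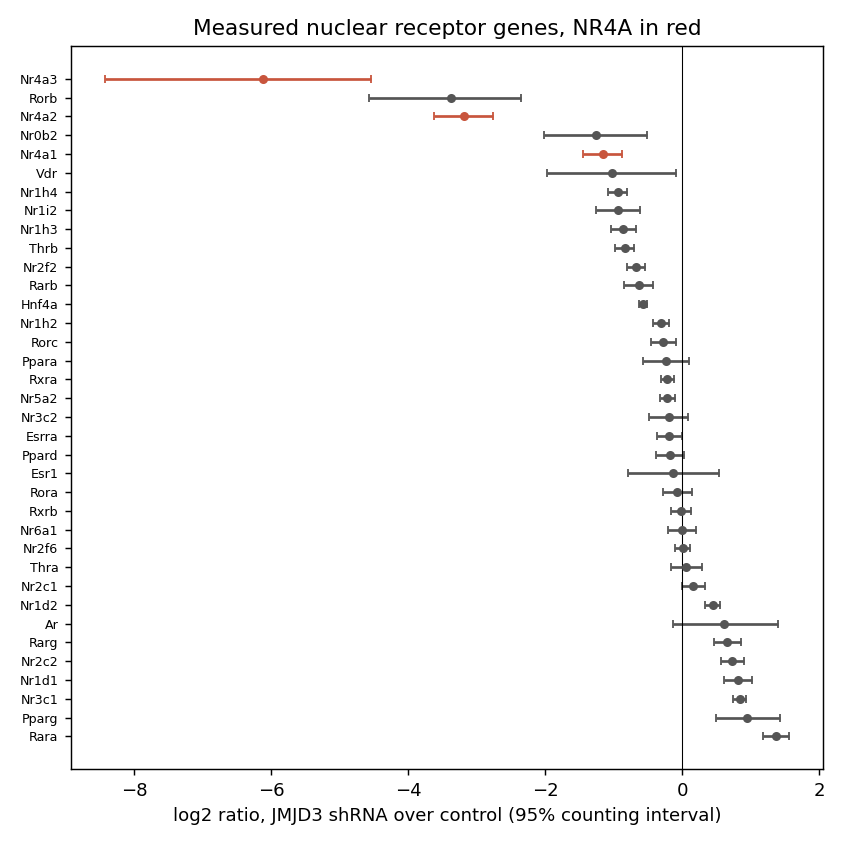
Log2 ratio of JMJD3 shRNA over control with 95% counting intervals for the 36 measured nuclear receptor genes, ordered by ratio, NR4A in red. Nr4a3, Nr4a2 and Nr4a1 stand 1st, 3rd and 5th from the lowest, and Rara at 1.37 is the highest.

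The genes that carry or oppose the cyclic AMP signal to CREB, and so to the NR4A promoters, had a median log2 ratio of -0.04. Since the list mixes both kinds, its median does not measure how much signal reached CREB. This list has 31 measured genes, 10 of them lower by the rule and 3 higher, beside 12.8% and 15.3% of all measured genes. With a 2-fold rule 8 were lower and 1 higher, as were 781 and 926 of all 12607 measured genes. Lower by the 1.5-fold rule were 2 adenylyl cyclases, which make cyclic AMP. These were Adcy2 at -2.51 (-3.44 to -1.66), on 53 and 15 counts, and Adcy9 at -1.40 (-1.62 to -1.18). Also lower were 5 phosphodiesterases, which degrade cyclic AMP (Pde4b, Pde4d, Pde3b, Pde8a and Pde4c), the kinases Sik1 and Sik3, and Crem. The higher ones were the cyclase Adcy1 at 0.70 (0.27 to 1.15), the protein kinase A subunit Prkar2b at 0.92 (0.22 to 1.67) and the kinase Sik2, so cyclases and SIK kinases stood on both sides. Of the phosphodiesterases measured, Pde4a at -0.34 passed neither way. The most abundant cyclase, Adcy6, with 93.9 CPM in control and 108 CPM in knockdown (log2 0.20), also passed neither way. So did the cyclases Adcy3, Adcy5 and Adcy7. The catalytic subunits of protein kinase A, Prkaca and Prkacb, were at 0.01 and 0.22, CREB itself (Creb1) at 0.01, and its coactivators Crtc1, Crtc2 and Crtc3 at -0.01, 0.32 and 0.30. Those genes, Pde4a, the cyclases that passed neither way, and the ones that passed other than Sik2 and Pde4b were named after their values were seen. The most abundant members per length, the regulatory subunit Prkar1a and the G protein alpha subunit Gnas, were at -0.45 and -0.17. The highest was Sik2 at 1.10 (0.84 to 1.38). The lowest was Pde4b, with 182 CPM in control and 22.2 CPM in knockdown, a log2 ratio of -3.04 (-3.19 to -2.88).

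Cyclic AMP induced genes other than NR4A were mostly lower, but some were higher. The rule found 11 of 20 lower and 6 higher, beside 12.8% and 15.3% of all measured genes, and the median was -0.87. The lowest was the tyrosine aminotransferase Tat, at 1514 CPM in control and 82.9 CPM in knockdown (log2 -4.19). Tat was also the most abundant per length by the mean of both libraries. In knockdown alone it was at 34.9 CPM per kb, below Cited2 at 308. Named after their values were seen, other lower ones were Sik1, which holds CREB coactivators in the cytoplasm, at -2.72 (-2.84 to -2.60), the phosphodiesterase Pde4d at -2.36 (-2.58 to -2.15), and Crem, which encodes the repressor ICER, at -2.28 (-2.45 to -2.11). Pde4b, Pde4d, Crem and Sik1 belong to this list and to that of the signal components. The coactivator Ppargc1a, also named after its values were seen, was at -1.04 (-1.22 to -0.85), near Nr4a1. In the other direction stood the AP-1 subunit Fosb, the highest of the list at 2.38 (1.63 to 3.23) on 16 and 134 counts, and the abundant Cited2 at 1.23. The other higher ones were Fos, Junb, Atf3 and Per1. Areg at 0.08, G6pc at -0.32 and Pck1 at -0.34 passed neither way, and these too were named after their values were seen. G6pc and Pck1 belong also to the list of glucose genes below.

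The other immediate early genes stood opposite to the NR4A genes. The rule found 17 of 22 measured genes higher and 2 lower, beside 15.3% and 12.8% of all measured genes. The median was 1.45. This list and the cyclic AMP induced list were chosen with earlier results of these data known. Fosl1, an AP-1 subunit, was highest at 3.76 (2.49 to 5.41) on 5 and 109 counts. Cyr61, a matricellular protein, had 63.5 CPM in control and 606 CPM in knockdown (log2 3.25). By the mean of both libraries it was one of the 2 most abundant per length, at 31.3 CPM per kb in control and 299 in knockdown. In control alone Dusp1, at 210 CPM per kb, and several others stood above it. The zinc finger factor Egr1, named after its values were seen, was at 2.32 (2.13 to 2.52). The genes lower were the phosphatase Dusp1 at -1.31 (-1.38 to -1.24), the other of the most abundant, and the NF-kappaB cofactor Nfkbiz, named after its values were seen, at -1.22. In this list 5 genes are shared with the cyclic AMP induced list, Atf3, Dusp1, Fos, Fosb and Junb.

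Liver genes known to respond to NR4A proteins were given as 2 short lists. The glucose genes, which NR4A proteins raise, all had ratios below 1, as did 6339 of the 12607 measured genes. A minimum of 5 CPM, which leaves out Fbp2, left 1 passing as lower, where 1214 of 10670 genes did. With the minimum of 1 CPM 2 of these 5 genes passed as lower, against 12.8% of all measured genes. The lower ones were the gluconeogenic enzyme Fbp1, with 91.4 CPM in control and 13.6 CPM in knockdown (log2 -2.75, interval -2.96 to -2.55), and its muscle form Fbp2 at -1.47 (-2.53 to -0.46) on 24 and 14 counts. The enolase Eno3 was at -0.36 (-0.75 to 0.02), the carboxykinase Pck1 at -0.34 (-0.45 to -0.23) and glucose-6-phosphatase, G6pc, at -0.32 (-0.38 to -0.26). The lipid synthesis list holds the regulator Srebf1, which Nr4a1 lowers in mouse liver. In that list 1 of 5 passed as higher and 0 as lower, beside 15.3% and 12.8% of all measured genes. The gene that passed was the fatty acid synthase Fasn at 0.76 (0.68 to 0.85). It did not pass when ratios were corrected for exon length or with a 2-fold rule. The acyltransferase Gpam was at 0.54, Srebf1 at 0.37, the carboxylase Acaca at -0.06 and the desaturase Scd1 at -0.22.

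The MEF2 factors and class IIa histone deacetylases switch Nr4a1 on and off in lymphocytes and muscle. Of these 8 genes 5 were measured, 2 of them higher (1 with a 2-fold rule) and 0 lower. Over all 12607 measured genes 15.3% passed as higher, or 926 genes with a 2-fold rule, and 12.8% as lower. Hdac7 was at 1.73 (1.60 to 1.87) and Mef2a at 0.92 (0.78 to 1.07), while Hdac5 was at 0.18, Mef2d at 0.08 and Hdac4 at -0.32. Mef2b, Mef2c and Hdac9 had 8 counts or fewer in each library and were not measured.

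**Figure D5:**
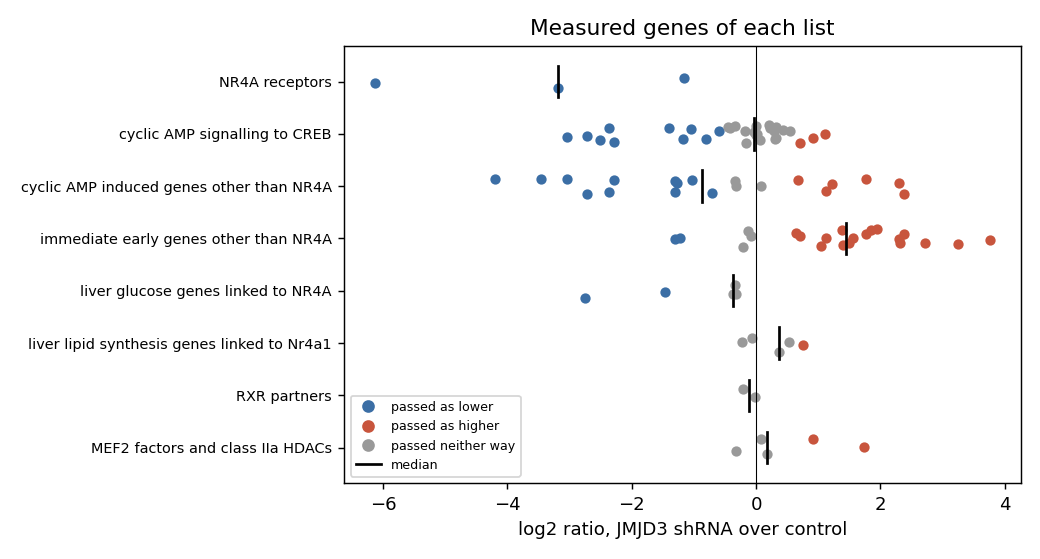
Log2 ratio of JMJD3 shRNA over control for each measured gene of the NR4A family and of 7 lists, blue where it passed the rule of size as lower, red as higher and grey where it passed neither way, with the list median as a black bar. The immediate early genes centre at 1.45 and the cyclic AMP induced genes at -0.87, and the NR4A genes lie at -1.16, -3.18 and -6.13.

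NR4A genes are also transcribed in macrophages, endothelial cells and lymphocytes, so the markers of these cells are given beside the NR4A values. Fewer cells of a type and less RNA per cell cannot be told apart in RNA from a whole culture. Macrophage markers summed to 29.6 CPM in control and 32.1 CPM in knockdown, with 0 of 7 measured genes past the rule of size and Clec4f, Cd163 and Timd4 at 0 counts in both libraries. Endothelial markers summed to 70.4 and 66.3 CPM, with 2 of 10 lower (Stab2 and Lyve1) and 1 higher (Oit3). Of 13 lymphoid and blood markers 1 was measured, Itgam at 0.27, and 8 had 0 counts in both libraries, among them Cd3e and Cd8a. Stellate cell and fibroblast markers summed to 1097 and 2292 CPM, mostly Vim, with 3 of 9 lower and 1 higher. Of 7 measured cholangiocyte markers 3 passed as higher. Beside these marker counts, 12.8% of all measured genes passed as lower and 15.3% as higher. The part of the hepatocyte, stellate cell and cholangiocyte markers in the NR4A values was not tested.

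The genes most like each member were those nearest in log2 ratio among genes with a mean level within 2-fold, a likeness over 2 libraries only. For Nr4a3 they were Hal, the histidine-degrading enzyme, with 132 and 3 counts and a log2 ratio of -6.15, the neurofilament gene Nefl at -5.62 and the natriuretic peptide gene Nppc at -5.58. For Nr4a2 they were Ypel4 and Ugt1a1, the bilirubin glucuronosyltransferase, both at -3.19, and the asparaginase Aspg at -3.13. Ugt1a1 shares exons with the other genes of its locus, so its count is uncertain. For Nr4a1 they were the ornithine aminotransferase Oat at -1.16, Galnt12 at -1.15 and Mn1 at -1.16. Hal lay 0.02 from Nr4a3 on the log2 scale, and the next of the 1777 genes compared, Nefl, lay 0.51 away.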

How the data were processed

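The members and gene lists were chosen with earlier results of these data known. Per the submitters' processing notes, the tools included STAR 2.5.3a, edgeR, FastQC 0.11.5, bcl2fastq 2.17.1.14 and Trimmomatic 0.36, and the build was mm9. The deposited counts are reads per gene over exons from featureCounts 1.4.6-p4, unstranded, per the file headers, with no recorded option for read pairs or multiply mapped reads. Each read of a pair was thus counted singly, which makes counting intervals too narrow. The deposited table of the comparison holds log2 fold changes, log2 CPM, p-values and adjusted p-values made by the authors. Its sign matched the knockdown over control ratio in 12600 of 12600 genes compared.

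Counts were scaled with TMM factors (edgeR 4.0.16, R 4.3.3), and ratios have exact conditional binomial intervals (scipy 1.17.1), with no pseudocount. Levels have exact Poisson intervals, and differences between members are conditional odds ratios. With 1 library per group no replicate test was possible. The procedure was tested on simulated counts that held counting error only. They had no spread between cultures and no read pairs counted singly, so that test does not cover these limits. Besides the members and Kdm6b, the genes named are the 2 nearest measured genes on each side, the 3 most like each member (clone and model names left out), the 2 most abundant per length with the highest and lowest of each list, and whole lists of up to 8 genes. The most abundant are those with the highest mean level per kb of exon over both libraries. Any other name was chosen after its values were seen. Alternatives were DESeq2 1.42.0 size factors, library totals, upper quartile factors, removal of a length trend, halved counts, other minimum levels and a 2-fold rule. Promoters came from RefSeq windows on GRCm38.p6, matched by symbol for all 3 members. Their coordinates were not mixed with those of mm9. Protein sequences were not used here.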

Additional observations from a re-analysis of the deposited data

How the results depend on the processing

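No paired analysis was possible because each group has 1 library, and for the same reason no replicate could be left out. The 3 NR4A genes passed as lower under every scaling tried, with the length trend removed and with halved counts. Over these settings the log2 ratio ran from -1.21 to -1.11 for Nr4a1, from -3.23 to -3.17 for Nr4a2 and from -6.17 to -6.00 for Nr4a3. With halved counts, as if pairs had been counted, the interval of Nr4a3 widened to -9.95 to -3.97 and the difference of Nr4a2 from Nr4a3 was 2.55 (0.49 to 5.70). Kdm6b moved to -1.73 with the length trend removed, by the construction of that setting for a long gene. Counts without division by exon length put the NR4A share of nuclear receptor transcripts at 3.38% in control and 0.804% in knockdown. A 2-fold rule left 781 genes lower and 926 higher, against 1612 and 1924, since it asks for a larger ratio. Of 128 list counts recomputed under 8 settings added after the data were seen, 121 stayed within 1.5 times. Of the 7 others 6 came with the 2-fold rule or a 5 CPM minimum, and 1 with the length trend removed. The other nuclear receptors went from 9 lower and 6 higher to 3 and 1 under the 2-fold rule. Depth limits Nr4a3 most, whose knockdown value rests on 3 counts.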

Other observations

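Because the NR4A promoters each held 4 CRE cores (TGACG), the other genes with such promoters were looked at, a choice made after the NR4A sequences and values were seen and given without a test. A promoter window was found by symbol for 9074 of the 12607 measured genes. Of 36 measured genes with 4 or more CRE cores in a window, 7 passed as lower and 3 as higher. Without the NR4A genes these were 4 and 3 of 33, or 12.1% lower and 9.09% higher, with a median log2 ratio of -0.02. Measured genes with no CRE core had 13.2% lower and 16.0% higher, those with 1 had 10.8% and 12.4%, those with 2 had 10.6% and 16.4%, and the 122 with 3 had 9.84% and 8.20%, with a median of -0.04. The lower ones beside NR4A were Etohd2 at -1.20, the autophagy and thyroid receptor cofactor Trp53inp2 at -1.01, with 304 CPM in control and 151 CPM in knockdown, Hps4 at -0.70 and the coatomer subunit Cope at -0.64. The higher ones were Chpf, which polymerises chondroitin, at 1.32, Heca at 0.84 and Ralgapa1 at 0.66.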
